A study of Mus musculus with 14 samples.

Results

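Genes that p53 controls or that arrest growth were followed in mouse lung 6 months after carbon fibre had been placed in the trachea. The set holds Cdkn1a, Mdm2, Ccng1, Trp53inp1, Bax, Gdf15, Phlda3, Gadd45a, Bbc3 and Cdkn2a, a fixed list of p53, DNA damage and growth arrest genes, and its probes are those whose gene name or RefSeq accession maps to a listed gene. These are 10 of the 17178 genes that carry a symbol on the array, read by 13 of its 41174 probes. All 13 probes stood well above background on all 14 arrays. The lungs came from male C57BL/6N mice, 1 lung per array, whose age is not given in the sources used here. VCF mice (n = 4) received carbon fibre from before recycling, CCF mice (n = 3) the fibre after carbonization, and RCF mice (n = 4) the fibre after firing, each as 200 µg per mouse into the trachea. Ctrl mice (n = 3) received phosphate-buffered saline by the same route. The comparisons ask whether any form of the fibre leaves a difference in these genes at 6 months, and whether the recycled forms differ from the fibre before recycling.

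The transcription factor p53 accumulates when DNA is damaged or a cell is otherwise stressed, and it switches on genes that halt the cell cycle, aid repair or start cell death. It is held in check by Mdm2, itself a p53 target, which marks p53 for degradation and so closes a feedback loop. Cdkn2a acts beside this loop: it encodes p16Ink4a, an inhibitor of the kinases that drive cells into division, and Arf, an inhibitor of Mdm2. In the lung, inhaled particles and fibres are studied for DNA damage and for lasting growth arrest of epithelial cells, and these genes are common readouts of both.

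p53 binds paired copies of a 10-base half-site, and the windows from 250 bases before to 50 bases after the transcription start were searched for the p53 half-site consensus, which reads the same on both strands. RefSeq (GRCm38.p6) gave such windows for 9 of the genes, and 5 of the 9 (55.6%) held at least 1 half-site, against 9.55% of the 27025 genes with a window. Some genes have more than 1 window. By window, 5 of 14 (35.7%) held a half-site, against 8.36% of 32851. The genes were listed for their link to p53, so these shares describe the list and test nothing. The stretches that hold a match are given here because they are where these 5 genes share a sequence feature. Capitals mark the half-site, all stretches read 5′ to 3′ on the strand of the gene, and all lie upstream of the start.
Cdkn1a, chr17:29090881-29090962, plus strand: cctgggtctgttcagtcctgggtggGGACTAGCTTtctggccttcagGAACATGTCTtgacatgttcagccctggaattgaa
Mdm2, chr10:117710910-117710969, minus strand: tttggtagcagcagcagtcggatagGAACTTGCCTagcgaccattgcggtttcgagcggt
Ccng1, chr11:40755437-40755496, minus strand: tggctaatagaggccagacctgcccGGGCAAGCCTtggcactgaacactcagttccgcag
Bax, chr7:45467065-45467124, minus strand: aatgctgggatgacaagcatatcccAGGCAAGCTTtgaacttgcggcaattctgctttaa
Gadd45a, chr6:67037413-67037472, minus strand: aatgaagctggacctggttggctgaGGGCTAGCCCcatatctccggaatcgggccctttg
Cdkn1a had 2 windows, for 2 annotated starts. The window of the stretch above held 2 half-sites, whose first bases lay at -73 and -51 from its own start. The other window, chr17:29093519-29093818, held none. The first base lay at -186 for Mdm2, -185 for Ccng1, -201 for Bax and -40 for Gadd45a. No match was found in the windows of Bbc3, Gdf15, Phlda3 and Cdkn2a. A match describes letters only, and the arrays do not measure binding.

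Levels are log2 of the background-subtracted intensity relative to the 75th percentile of the same array, read at a gene's brightest probe unless another is named. A difference is a difference of mean log2 levels with its standard error (SE) from limma, and a gene passed where the two-sided p, adjusted by Benjamini-Hochberg over all 29271 probes tested, was under 0.05. The 75th percentile of intensity ran from 724.7 to 1346 over the arrays, and between 63.07% and 70.62% of probes were well above background. Lung identity was plain in all arrays, with 6 of 6 alveolar epithelium markers, 3 of 3 airway secretory markers and 4 of 4 endothelial markers well above background on all 14. The arrays lay on 4 slides, told apart by barcode. Slides 1 and 3 held all 4 groups, slide 2 had no CCF array and slide 4 no Ctrl array. With the slide as a factor beside the groups, 2.11% of all probes differed between slides at an adjusted p under 0.05 in limma. Genes of liver, thymus or adipose tissue stood highest on 4 arrays. A score is the mean log2 difference of a list's genes from the Ctrl mean. It was 2.54 for adipose tissue in VCF replicate 1, and 2.68 for liver and 2.83 for thymus in CCF replicate 2. It was 5.75 for thymus in CCF replicate 3 and 3.66 for liver in RCF replicate 1. Other arrays were also raised, with liver at 1.40 in CCF replicate 1 and 1.23 in VCF replicate 4. Cardiac muscle scored between -1.80 and 2.36 over the 14 arrays.

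None of the 10 genes passed in any comparison with Ctrl. In VCF lungs 0 of 10 passed in limma, where 0.0102% of all probes did. In CCF and RCF lungs 0 of 10 passed, as did 0% of all probes in each. In all fibre groups averaged against Ctrl 0 of 10 passed, beside 0.00342% of all probes. At an unadjusted p under 0.05 the counts were 1 of 10 in VCF (8.26% of all probes), 0 of 10 in CCF (6.59%), 1 of 10 in RCF (5.34%) and 1 of 10 in all fibres (6.66%), and the gene was Bbc3 each time. The exact permutation test of each gene over arrays gave a p under 0.05 for 1 of 10 in VCF, RCF and all fibres, again Bbc3. In CCF its 20 splits allow 0.1 at the least, so no gene could fall under 0.05 there. In VCF and RCF only the smallest possible value, 0.0286, is under 0.05, and it requires arrays that do not overlap. The share of all probes under 0.05 in this test was not computed. The median difference over the 10 genes was 0.022 in VCF, -0.058 in CCF and -0.004 in RCF against Ctrl, beside 0.014, -0.015 and 0.012 over all probes in the same order. In VCF 5 genes lay above and 5 below their Ctrl means, in CCF 3 above and 7 below, and in RCF 4 above and 6 below. The gene with the largest distance from Ctrl was Bbc3 in VCF (0.29) and RCF (0.37), and Cdkn1a in CCF (0.29).

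**Figure D1:**
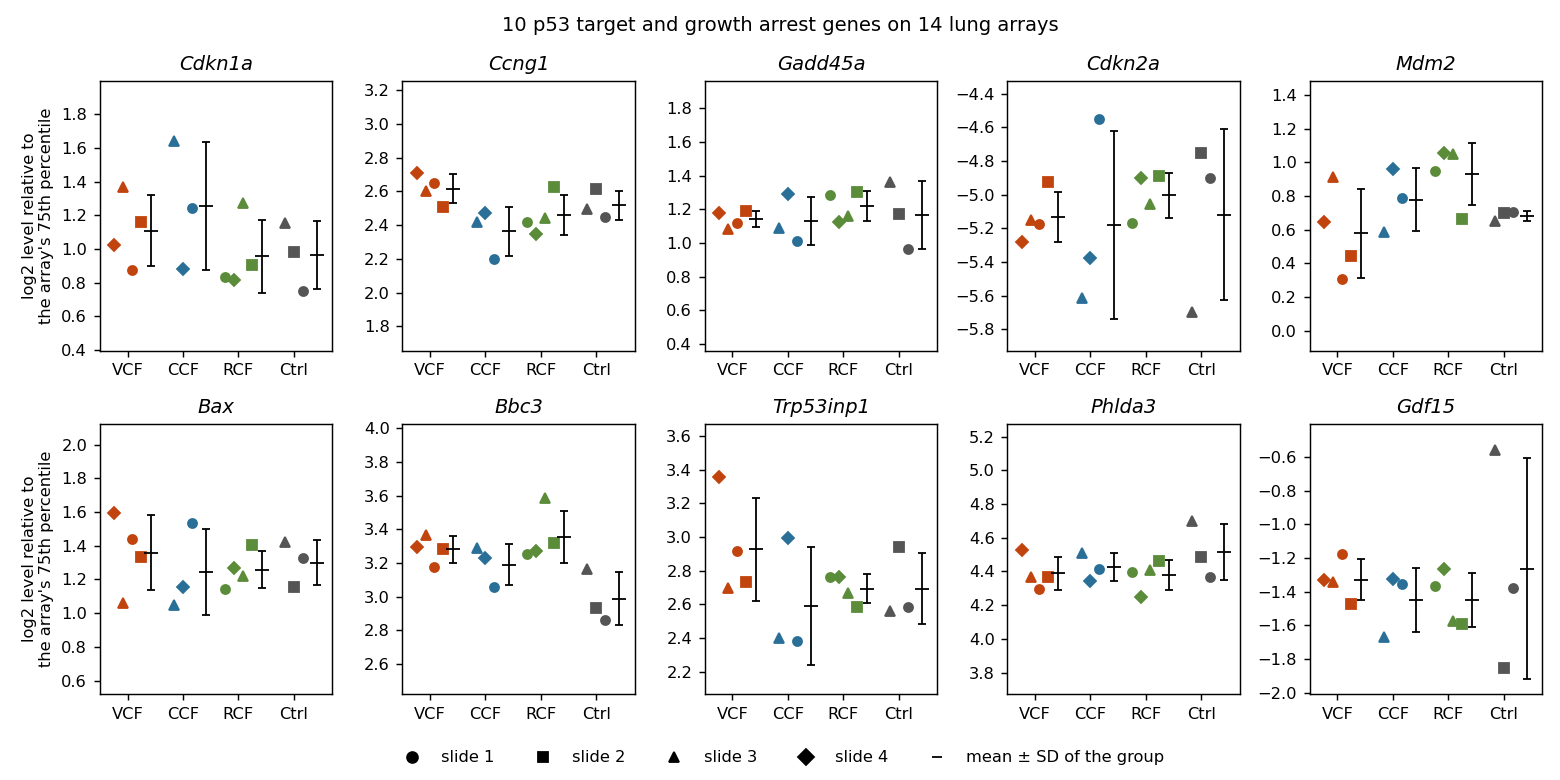
Log2 level of each of the 10 genes at its brightest probe (vertical axes, all spanning the same 1.6 log2 units) on every array, by group, with the marker shape giving the slide and the black bar the group mean ± SD (n = 4 VCF, 3 CCF, 4 RCF, 3 Ctrl). Bbc3 is the gene whose VCF (3.173 to 3.37) and RCF (3.26 to 3.58) arrays all lie above the Ctrl arrays (2.86 to 3.167), in VCF only just. Gdf15 shows 1 Ctrl array, at -0.56, far above the other Ctrl arrays.

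Bbc3 encodes PUMA, a protein of the BCL2 family that binds the survival members and so starts cell death through the mitochondria. It read 3.30, 3.37, 3.17 and 3.28 on the VCF arrays, 3.29, 3.23 and 3.06 on the CCF arrays and 3.26, 3.27, 3.58 and 3.32 on the RCF arrays, against 3.17, 2.93 and 2.86 on the Ctrl arrays. Every VCF and RCF array lay above every Ctrl array, while 1 CCF array lay within the Ctrl range. In VCF the separation was nearly a tie, with the lowest VCF array at 3.173 and the highest Ctrl array at 3.167. The group means were 3.28 ± 0.081 in VCF, 3.19 ± 0.12 in CCF and 3.36 ± 0.15 in RCF, against 2.99 ± 0.16 in Ctrl (SD, n = 4, 3, 4 and 3). The difference was 0.29 (SE 0.12, 1.22-fold) in VCF with an adjusted p of 0.534 in limma, and 0.37 (SE 0.12, 1.29-fold) in RCF with an adjusted p of 0.736. In CCF it was 0.20 (SE 0.13, 1.15-fold, adjusted p = 0.818 in limma). An exact permutation test of this single gene gave p = 0.0286 in VCF and in RCF, two-sided, the smallest value its 35 splits allow, and p = 0.2 in CCF, where 20 splits allow 0.1 at the least. Over all fibre arrays the exact p was 0.00549 (364 splits), with 11 of 11 arrays above the Ctrl mean and a difference of 0.29 (SE 0.10, adjusted p = 0.663 in limma).

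At the brightest probes, 1 of the 10 genes had arrays that did not overlap with Ctrl in VCF, 1 in RCF and 0 in CCF, and that gene was Bbc3. Over all probes, 6.02% had all VCF arrays above all Ctrl arrays and 2.67% all below. In RCF 4.2% lay above and 3.87% below, and in CCF 4.76% above and 5.02% below. The counts of 1, 1 and 0 of 10 genes are near that background. The direction was the same on every slide that could show it. For VCF and RCF this follows from the lack of overlap, so it is no separate evidence. The same Ctrl arrays serve all these differences. The VCF array stood above the Ctrl array of its slide by 0.31, 0.35 and 0.20 on slides 1, 2 and 3, and the RCF array by 0.39, 0.38 and 0.42. The CCF array stood above by 0.19 on slide 1 and 0.12 on slide 3. With the slide as a block the differences were 0.29 in VCF, 0.20 in CCF and 0.37 in RCF, with adjusted p of 0.358, 0.752 and 0.412 in limma. Without the 4 arrays high in genes of other tissue they were 0.29, 0.30 and 0.40, the CCF value then resting on 1 array that was assumed to vary like the others.

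Red blood cell genes are set beside Bbc3. All 6 genes of that list lay above their Ctrl means in VCF, CCF and RCF, but 0 of 6 passed in limma (smallest adjusted p 0.146, 0.599 and 0.277). An unadjusted p under 0.05 was reached by 4, 3 and 3 of the 6 genes, beside 8.26%, 6.59% and 5.34% of all probes. No red blood cell gene was below background on every array, and Hba-a1 was the brightest. Their score ran from 1.03 to 1.78 on the VCF arrays, 0.29 to 1.91 on the CCF arrays and 0.78 to 1.31 on the RCF arrays, against -0.68 to 0.52 on the Ctrl arrays. The VCF and RCF arrays lay above the Ctrl range, and 2 of the 3 CCF arrays lay within it. Over the 14 arrays, red blood cells had the highest Pearson's r with Bbc3 of the 10 cell type lists, 0.691. A list of 20 other p53 targets gave 0.685. The r of red blood cells is the highest of 10 on these same arrays, so it is no test. The part of blood in the Bbc3 difference was not tested. In whole lung a change in the number of cells of a type and a change in RNA per cell cannot be told apart.

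**Figure D2:**
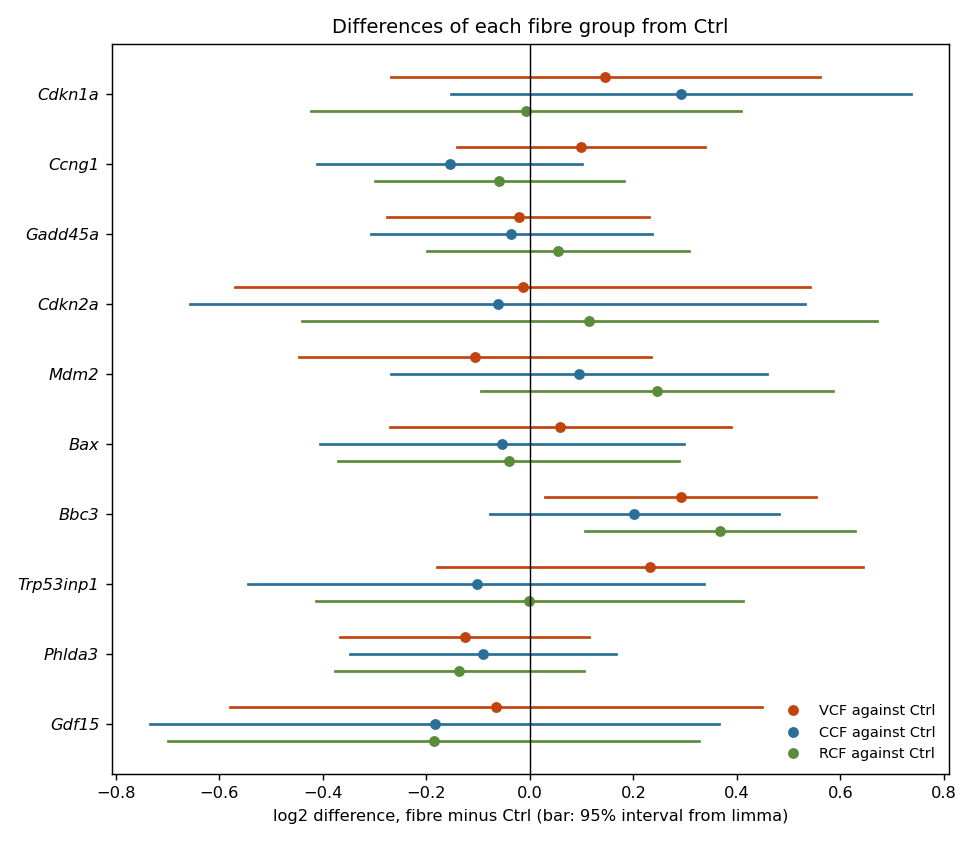
Difference of each fibre group from Ctrl for the 10 genes (log2, horizontal axis), with the 95% interval from limma as a bar and 1 colour per fibre group. The intervals of Bbc3 leave out 0 in VCF (0.030 to 0.55) and RCF (0.11 to 0.63), before adjustment for the number of probes, and the other 28 intervals hold 0.

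Bax, the pore-forming protein that Bbc3 and its relatives activate, had values that lay together in all groups. It read 1.59, 1.06, 1.44 and 1.33 in VCF, 1.05, 1.16 and 1.53 in CCF and 1.15, 1.27, 1.22 and 1.40 in RCF, against 1.42, 1.16 and 1.33 in Ctrl. The groups overlapped throughout, and the differences from Ctrl were 0.058 in VCF, -0.054 in CCF and -0.041 in RCF (SE 0.15, 0.16 and 0.15). The 95% interval of the VCF difference ran from -0.27 to 0.39. Bax is read by 10 spots per array, whose log2 values had a median SD of 0.048, against an SD of 0.19 between arrays of 1 group.

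Cdkn1a encodes p21, the cyclin-dependent kinase inhibitor through which p53 stops the cell cycle. It read 1.03, 1.37, 0.88 and 1.16 on the VCF arrays, 1.64, 0.88 and 1.25 on the CCF arrays and 0.83, 0.82, 1.27 and 0.91 on the RCF arrays, against 1.15, 0.98 and 0.75 on the Ctrl arrays. The highest array of all was CCF replicate 1, but each fibre group overlapped with Ctrl. The differences from Ctrl were 0.15 (SE 0.19) in VCF, 0.29 (SE 0.20) in CCF and -0.007 (SE 0.19) in RCF (adjusted p = 0.933, 0.83 and 1 in limma). The interval of the CCF difference ran from -0.15 to 0.74, and without CCF replicate 1 the difference was 0.1. The level of Cdkn1a also went with the slide. In each of the 4 groups the array on slide 3 was the highest, and the mean was 1.36 on slide 3 against 0.93, 1.02 and 0.91 on slides 1, 2 and 4. The moderated F test over slides in limma gave an adjusted p of 0.08. With the slide as a block the differences were 0.21 in VCF, 0.37 in CCF and 0.061 in RCF, and within slides VCF stood above Ctrl on 3 of 3, CCF on 2 of 2 and RCF on 2 of 3. Cdkn1a is read by 10 spots per array with a median SD of 0.062, against 0.25 between arrays of 1 group.

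Over the 14 arrays, the genes whose level ran most like that of Cdkn1a among 14467 others were Clasp2 (Pearson's r 0.87), Eif4a3 (0.839), Zfp595 (0.826), Card10 (0.822) and Gfpt2 (0.82). After the group means had been taken out, the same genes gave r of 0.905, 0.84, 0.908, 0.794 and 0.768 with Cdkn1a. The named genes were picked for the highest r of 14467 on these same arrays, so their r is no test. The r without the group means comes from the same arrays and is no separate evidence. All points share the array, its slide and its scaling. With the other 9 members, Cdkn1a gave r between -0.429 (Trp53inp1) and 0.397 (Bbc3). Over the 45 pairs of members r ran from -0.483 (Phlda3 and Cdkn2a) to 0.649 (Ccng1 and Trp53inp1), with a median of -0.033.

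Mdm2 encodes the ubiquitin ligase that removes p53. Its brighter probe read 0.64, 0.92, 0.31 and 0.44 in VCF, 0.59, 0.96 and 0.79 in CCF and 0.95, 1.06, 1.05 and 0.66 in RCF, against 0.65, 0.70 and 0.70 in Ctrl. The 3 Ctrl arrays lay close together and the fibre arrays spread on both sides of them. Mdm2 differed from Ctrl by -0.11 (SE 0.16) in VCF, 0.094 (SE 0.17) in CCF and 0.25 (SE 0.16) in RCF, with adjusted p of 0.946, 0.955 and 0.99 in limma. The second Mdm2 probe, with 10 spots per array, gave -0.046 (SE 0.33), 0.051 (SE 0.35) and 0.35 (SE 0.33), and the probes correlated over arrays with r of 0.405. On that probe slide 3 again held the highest array of each group, at -2.52 in VCF, -2.28 in CCF and -2.005 in RCF, against -2.52 in Ctrl. Its adjusted p over slides was 0.0566 in limma.

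**Figure D3:**
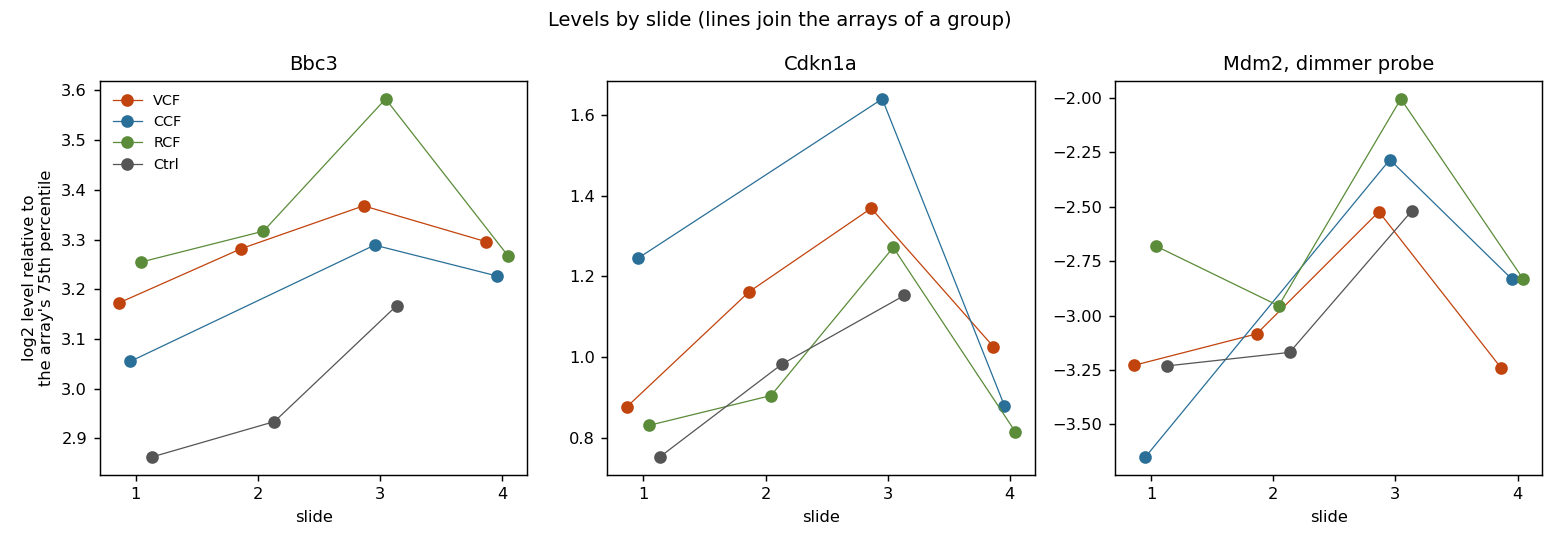
Log2 level of Bbc3, Cdkn1a and the dimmer Mdm2 probe (vertical axes) by slide (horizontal axis), 1 point per array, with lines joining the arrays of 1 group. Bbc3 lies above the Ctrl array for every fibre array of slides 1 to 3, while for Cdkn1a and the dimmer Mdm2 probe slide 3 holds the highest array of each group, up to 1.64 and -2.005.

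Ccng1 encodes cyclin G1, a p53 target that helps return p53 to low levels through Mdm2. It read 2.71, 2.60, 2.65 and 2.51 on the VCF arrays, 2.42, 2.47 and 2.20 on the CCF arrays and 2.42, 2.35, 2.44 and 2.63 on the RCF arrays, against 2.49, 2.61 and 2.45 on the Ctrl arrays. The VCF arrays lay high and the CCF arrays low, with Ctrl between and overlapping both. Ccng1 differed from Ctrl by 0.098 (SE 0.11) in VCF, -0.16 (SE 0.12) in CCF and -0.059 (SE 0.11) in RCF, with adjusted p of 0.915, 0.85 and 0.997 in limma. The second Ccng1 probe gave -0.062 (SE 0.12), -0.25 (SE 0.13) and -0.20 (SE 0.12), so the probes had opposite signs in VCF. It read 0.50, 0.45 and 0.40 in CCF, against 0.56, 0.72 and 0.80 in Ctrl, without overlap, as 5.02% of all probes did in that direction. The exact permutation test gave p = 0.1, the smallest that 20 splits allow, and the r of the probes over the arrays was 0.468.

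Gadd45a, a stress sensor that acts in DNA repair and at the entry to mitosis, had values close together in all groups. It read 1.18, 1.09, 1.12 and 1.19 in VCF, 1.09, 1.29 and 1.01 in CCF and 1.29, 1.12, 1.16 and 1.31 in RCF, against 1.36, 1.18 and 0.96 in Ctrl. All fibre arrays lay within the Ctrl range. Gadd45a differed from Ctrl by -0.022, -0.036 and 0.054 in VCF, CCF and RCF (SE 0.12, 0.13 and 0.12), and the widest bound of the 3 intervals was 0.31.

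Cdkn2a was faint, at 14.02 to 49.95 intensity units, though well above background by the scanner software on all arrays. Which of its transcripts the probe reads was not examined. It read -5.28, -5.15, -5.17 and -4.93 in VCF, -5.61, -5.37 and -4.55 in CCF and -5.17, -4.90, -5.05 and -4.89 in RCF, against -5.70, -4.75 and -4.90 in Ctrl. The Ctrl arrays spanned all the others except the highest CCF array. The differences from Ctrl were -0.014 (SE 0.26) in VCF, -0.062 (SE 0.27) in CCF and 0.11 (SE 0.26) in RCF, with intervals from -0.66 in CCF to 0.67 in RCF. The median SD between its 10 spots was 0.18, the highest of the 4 genes or probes with replicate spots.

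Trp53inp1, a stress-induced partner of p53 that favours death and autophagy, was read by 2 probes that did not run together. The brighter read 3.36, 2.70, 2.91 and 2.74 in VCF, 2.40, 2.99 and 2.38 in CCF and 2.76, 2.76, 2.67 and 2.59 in RCF, against 2.56, 2.94 and 2.58 in Ctrl. VCF replicate 1 was the highest, and all groups overlapped. On this probe Trp53inp1 differed from Ctrl by 0.23 (SE 0.19) in VCF, -0.10 (SE 0.20) in CCF and -0.001 (SE 0.19) in RCF, with adjusted p of 0.859, 0.959 and 1 in limma. Without VCF replicate 1 the VCF difference was 0.088. That array also had the highest adipose score, 2.54, beside -0.22 to 0.58 on the other VCF arrays and -0.60 to 0.61 on the Ctrl arrays. All 6 adipose genes were tested, none was below background on every array, and Cfd was the brightest. Of the 10 cell type lists, adipose tissue gave the brighter probe its highest r over the arrays (0.504), but endothelium gave -0.548. The part of adipose tissue in this value was not tested. The second probe read 0.44 in CCF replicate 3 and between -2.51 and -0.68 on the other 13 arrays. Its differences were 0.41 (SE 0.52), 0.73 (SE 0.56) and -0.12 (SE 0.52), and its r with the brighter probe was 0.079. CCF replicate 3 also had the highest thymus score, 5.75, beside -0.002 and 2.83 on the other CCF arrays and -0.27 to 0.51 on the Ctrl arrays. That score rests on Rag1 and Dntt, the 2 thymus genes tested of 4 on the array, of which 1 stood above background on no array. Thymus likewise gave the second probe its highest r of the 10 lists (0.595), but endothelium gave -0.673 and the other p53 targets -0.724. The part of thymus tissue in the second probe's value was not tested.

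Phlda3 encodes an inhibitor of AKT, a survival kinase. It read 4.53, 4.37, 4.30 and 4.37 in VCF, 4.51, 4.35 and 4.42 in CCF and 4.39, 4.25, 4.41 and 4.46 in RCF, against 4.70, 4.48 and 4.37 in Ctrl. Ctrl replicate 1 was higher than any fibre array, while the other Ctrl arrays lay among them. Phlda3 differed from Ctrl by -0.13 (SE 0.11) in VCF, -0.091 (SE 0.12) in CCF and -0.14 (SE 0.11) in RCF, with adjusted p of 0.872, 0.931 and 0.991 in limma. Without Ctrl replicate 1 the differences were -0.035 in VCF, 0 in CCF and -0.046 in RCF.

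Gdf15 encodes a secreted stress cytokine of the TGF-beta family that p53 can induce. It read -1.33, -1.34, -1.18 and -1.47 in VCF, -1.67, -1.33 and -1.35 in CCF and -1.37, -1.27, -1.58 and -1.59 in RCF, against -0.56, -1.85 and -1.38 in Ctrl. All 11 fibre arrays lay between the Ctrl arrays, 1 of which was the highest and another the lowest of all. The differences from Ctrl were -0.065 (SE 0.24) in VCF, -0.18 (SE 0.25) in CCF and -0.19 (SE 0.24) in RCF. Without Ctrl replicate 1 they were 0.29, 0.17 and 0.17, and without Ctrl replicate 2 they were -0.36, -0.48 and -0.48. The sign of the Gdf15 difference thus turned when 1 Ctrl lung was left out. Ctrl replicate 1 also had the highest score of 8 neutrophil genes, 1.20. The score ran from -0.86 to -0.31 in VCF, -0.47 to 0.16 in CCF and -1.27 to -0.38 in RCF, and was -0.83 and -0.37 on the other Ctrl arrays. No neutrophil marker was below background on every array, and S100a9 was the brightest. Neutrophils had the highest r with Gdf15 of the 10 cell type lists (0.754), a pick from these same arrays. The part of neutrophils in the Gdf15 value was not tested.

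**Figure D4:**
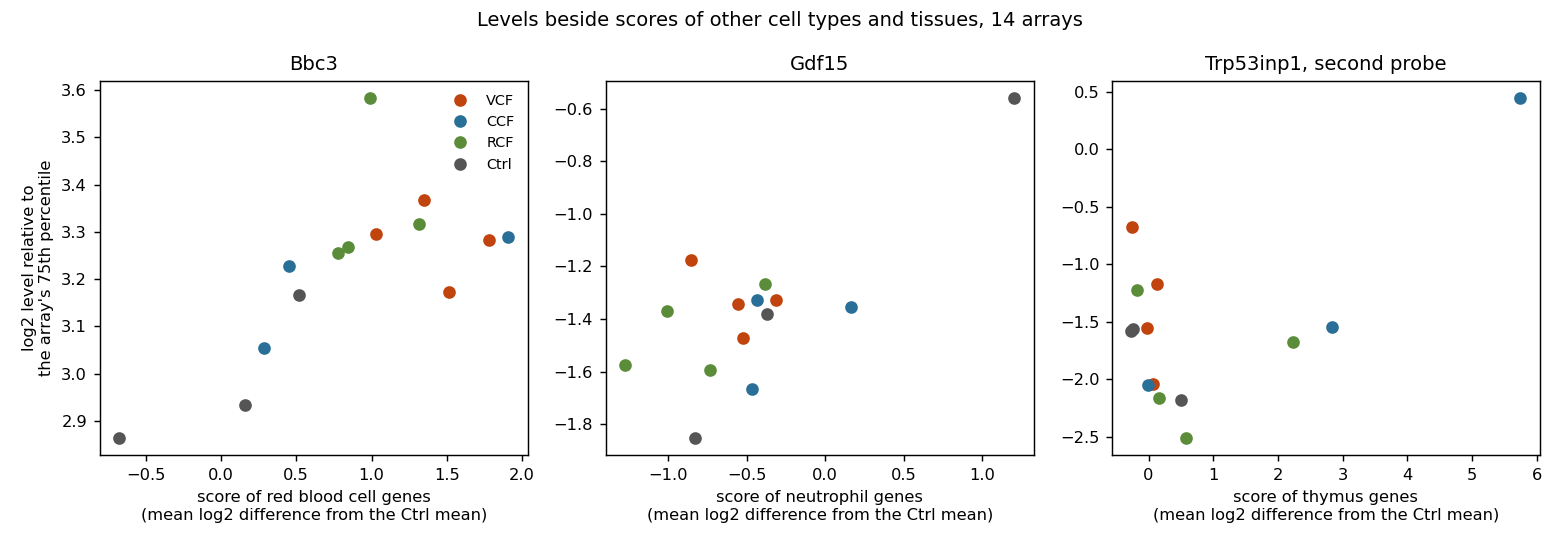
Log2 level (vertical axes) of Bbc3, Gdf15 and the second Trp53inp1 probe against the score of red blood cell, neutrophil and thymus genes (horizontal axes, mean log2 difference from the Ctrl mean), 1 point per array and 1 colour per group. The Ctrl array at the top right for Gdf15 has a score of 1.20, and the CCF array at the top right for Trp53inp1 a score of 5.75. Each list shown is the one with the highest r among the 10 cell type lists.

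Between the forms of fibre, none of the 10 genes passed either. In CCF against VCF, RCF against VCF and RCF against CCF 0 of 10 passed in limma, as did 0% of all probes in each. At an unadjusted p under 0.05 the counts were 1 of 10 in CCF against VCF (5.8% of all probes), 1 of 10 in RCF against VCF (5.29%) and 0 of 10 in RCF against CCF (7.9%). The median differences over the 10 genes were -0.068, -0.056 and 0.094 in that order. Ccng1 was the gene in CCF against VCF, with a difference of -0.25 (SE 0.11, 0.839-fold, adjusted p = 0.849 in limma). Its 3 CCF arrays lay below its 4 VCF arrays, as did those of 4% of all probes, and the exact permutation test gave p = 0.0571. The CCF array stood below the VCF array of its slide on slides 1, 3 and 4, by -0.45, -0.19 and -0.24, while the second Ccng1 probe gave -0.42, 0.11 and -0.18. Mdm2 was the gene in RCF against VCF, with a difference of 0.35 (SE 0.15, 1.28-fold, adjusted p = 0.939 in limma). Its groups overlapped, the exact permutation test gave p = 0.0571, and the RCF array stood above the VCF array on all 4 slides, by 0.64, 0.22, 0.14 and 0.41. The second Mdm2 probe gave 0.40 (SE 0.30), and 0.55, 0.13, 0.52 and 0.41 on the slides. With the slide as a block the adjusted p of these differences was 0.68 for Ccng1 and 0.646 for Mdm2. Both comparisons use the same VCF arrays. Bbc3 differed by -0.089 (interval -0.35 to 0.17) in CCF against VCF, by 0.076 (-0.17 to 0.32) in RCF against VCF and by 0.17 (-0.096 to 0.43) in RCF against CCF.

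The genes around this set were listed by role and read in the same fit. Of 20 other p53 targets 0 passed in any comparison with Ctrl in limma. An unadjusted p under 0.05 was reached by 0 in VCF (8.26% of all probes), 0 in CCF (6.59%) and 2 in RCF (5.34%). In VCF 11 lay above and 9 below Ctrl (median 0.039), in CCF 6 and 14 (-0.090) and in RCF 10 and 10 (0.031). Plk2, a kinase that p53 induces, had the smallest p. It read 1.45, 1.75, 1.40 and 1.41 in VCF, 1.54, 1.73 and 1.33 in CCF and 1.87, 1.97, 1.94 and 1.72 in RCF, against 1.40, 1.12 and 1.33 in Ctrl. All RCF arrays lay above all Ctrl arrays, as for 4.2% of all probes, with a difference of 0.59 (SE 0.13, adjusted p = 0.364 in limma). In VCF and CCF it was 0.22 (SE 0.13) and 0.25 (SE 0.14). Tnfrsf10b, a death receptor, was faint, at -5.01 to -3.85. It differed by -0.10 in VCF, -0.009 in CCF and -0.42 (SE 0.18) in RCF, where its arrays overlapped with Ctrl. Leaving out single arrays gave -0.554 to -0.222 in RCF. Ddb2, a DNA damage recognition factor, differed by 0.023 in VCF and -0.24 (SE 0.12) in CCF. Its RCF mean was -1.012, against -1.005 in Ctrl.

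Of 15 genes of the p53 family and its regulators 14 were tested and 0 passed, or reached an unadjusted p under 0.05, in VCF, CCF or RCF. The medians were 0.018 in VCF, -0.003 in CCF and -0.019 in RCF, and the smallest p belonged to Chek2, a DNA damage kinase (-0.35, -0.099 and -0.40 in that order), Rchy1, a p53 ubiquitin ligase (0.082, 0.045 and 0.23) and the coactivator Ep300 (0.044, 0.35 and -0.020). Chek2 was faint, at -4.73 to -3.85, though well above background on all arrays. Of 15 other growth arrest genes 0 passed (unadjusted 1, 0 and 1), with medians of 0.035, 0.018 and -0.032. The kinase inhibitor Cdkn2c differed by 0.31, -0.002 and 0.32, its relative Cdkn2b by -0.32, -0.29 and -0.14, and the stress factor Ddit3 by 0.25, 0.18 and -0.17. Of 14 genes of the BCL2 family and the caspases 12 were tested and 0 passed (unadjusted 1, 0 and 1), with medians of 0.041, 0.005 and 0.11. Among the partners of Bbc3 and Bax, the survival gene Bcl2l1 differed by 0.45 (SE 0.17), 0.27 and 0.14, the survival gene Bcl2 by 0.18, 0.021 and 0.31, and the pore-former Bak1 by -0.32, -0.034 and -0.29, its VCF value turning to 0.029 with the mean over its probes. Of 13 genes linked to senescence 0 passed (unadjusted 3, 3 and 2), with medians of -0.007, -0.17 and -0.002. For all these lists, the share of all probes with an unadjusted p under 0.05 was 8.26%, 6.59% and 5.34% in VCF, CCF and RCF. Igfbp3 differed by 0.73, 0.74 and 0.67 and the protease inhibitor Timp1 by -0.93, -0.94 and -0.96, while the chemokine Ccl2 differed by -0.35, -0.67 and -0.60, and 1 Ctrl array, replicate 1 at -1.04, read lowest for Igfbp3. Without Ctrl replicate 1 Igfbp3 differed by 0.397, 0.407 and 0.339 and Ccl2 by -0.145, -0.47 and -0.401, while without Ctrl replicate 3 Ccl2 in VCF differed by -0.585.

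Of 20 cell division genes 0 passed. An unadjusted p under 0.05 in limma was reached by 0, 0 and 3 in VCF, CCF and RCF, beside 8.26%, 6.59% and 5.34% of all probes. Most of the 20 genes lay below Ctrl. All 20 did so in VCF (median -0.27), 18 in CCF (-0.17) and 19 in RCF (-0.32), where 52.3%, 47.5% and 52.3% of all probes lay above Ctrl. Mki67, the proliferation marker, differed by -0.37 (SE 0.23), -0.20 (SE 0.24) and -0.61 (SE 0.23) in that order. The mitotic kinase Bub1 differed by -0.34, -0.036 and -0.35. The topoisomerase Top2a, faint at -5.47 to -3.76, differed by -0.15, 0.43 and -0.33. Its CCF value turned to -0.395 with the mean over its probes. The score of the 20 genes ran from -0.44 to -0.058 in VCF, -0.61 to 0.14 in CCF and -0.65 to -0.18 in RCF. It was 0.26, 0.14 and -0.40 on the Ctrl arrays, so Ctrl replicate 3 lay among the fibre arrays. Alveolar macrophage genes were low beside them, with 8 of 8 below Ctrl in VCF, CCF and RCF (medians -0.351, -0.623 and -0.267), although 0 of 8 passed in limma (unadjusted 3, 6 and 2). Their score ran from -0.48 to -0.19 in VCF, -0.845 to -0.44 in CCF and -0.32 to -0.14 in RCF, against -0.15 to 0.097 in Ctrl. All 8 macrophage genes were well above background on all arrays, with Chil3 the brightest. Of 8 neutrophil genes 7 lay below Ctrl in VCF, 5 in CCF and 7 in RCF (medians -0.677, -0.222 and -0.736), and 0 passed (unadjusted 0, 1 and 1). The part of these cells in the cell division differences was not tested. The cell division medians were -0.20, -0.068 and -0.21 without Ctrl replicate 1, -0.20, -0.060 and -0.28 without Ctrl replicate 2, and -0.52, -0.35 and -0.56 without Ctrl replicate 3. With the slide as a block they were -0.23, -0.052 and -0.28. The comparisons share the Ctrl arrays, and the differences of Cdkn1a in the same order were 0.15, 0.29 and -0.007.

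**Figure D5:**
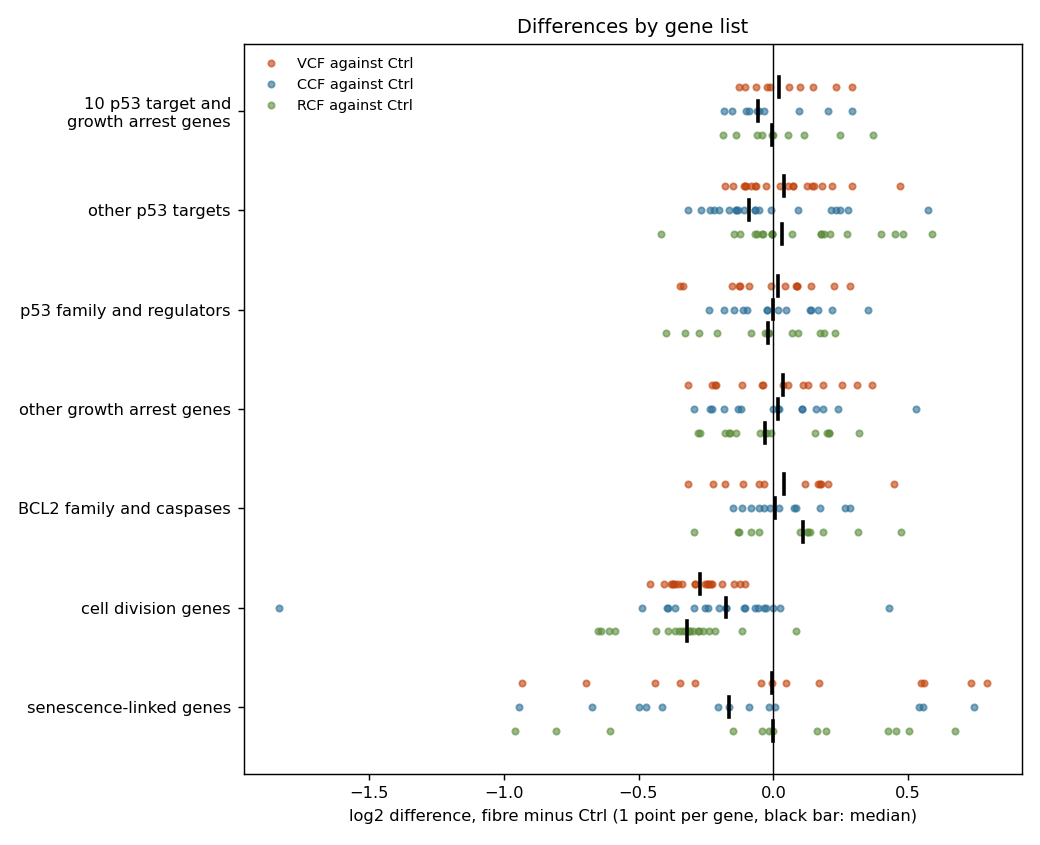
Difference of each fibre group from Ctrl (log2, horizontal axis) for the 10 genes and for the genes of 6 lists, 1 point per gene at its brightest probe, 1 colour per comparison and a black bar at the median. The 10 genes lie around 0 in all groups, and the medians of the cell division genes lie at -0.27 in VCF, -0.17 in CCF and -0.32 in RCF.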

How the data were processed

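Per the file headers, the deposited scanner files hold intensity values per spot from Agilent Feature Extraction 10.7.3.1, background-subtracted by that software and not normalized between arrays. The authors' deposited table is on a log2 scale and served as an alternative. Here, control spots and spots marked as outliers (61 to 254 per array) were left out, log2 intensities were averaged per probe, and each array's 75th percentile was subtracted. Probes well above background on at least 3 of 14 arrays were tested (29271) in limma 3.58.1 (R 4.3.3), all groups in 1 fit, p-values adjusted over all of them. The number of arrays limits the precision. Symbols came from RefSeq accessions. Version 1.17.8 of the package data.table read the files, and matplotlib 3.10.9 drew the figures. The fit was tested on simulated data without slide effects, with planted changes larger than any difference of the 10 genes. Changes as small as those of the 10 genes were not simulated. The 10 genes, the 6 gene lists and the 10 cell type lists were chosen with earlier results of these data known. Named are all 10 genes, the 3 genes of each list with the smallest p of the moderated F test over the fibre contrasts, and the 5 genes most like Cdkn1a. Replicates are separate animals by the series' design text. Alternatives were normexp, quantile and cyclic loess normalization, filters on dim probes, slide and replicate blocks, other fits and weights, the average over probes, and fits that each lacked 1 array. Chosen after seeing the data were keeping outlier spots and leaving out 4 arrays.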

Additional observations from a re-analysis of the deposited data

How the results depend on the processing

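None of the 10 genes passed in any of the 7 comparisons under any of the 196 combinations of comparison and alternative with an adjusted p in limma, the smallest being 0.295. At an unadjusted p under 0.05, 1 gene passed in VCF, RCF and all fibres against Ctrl, in CCF against VCF and in RCF against VCF, and 0 in the others. Of 1960 values of single genes 145 had the other sign, 14 of them by at least the SD between arrays, a criterion chosen after the sign changes were seen. With normexp background correction these were Ccng1 in VCF against Ctrl (-0.033), CCF against VCF (0.033) and RCF against CCF (-0.064), Phlda3 in CCF against Ctrl (0.045) and RCF against VCF (0.145), Bax in CCF against VCF (0.089), and Bbc3 in CCF against VCF (0.221) and RCF against CCF (-0.086). That correction moved the median of all probes to -0.226 in CCF against Ctrl, -0.27 in CCF against VCF and 0.221 in RCF against CCF. With the mean over probes Trp53inp1 read 0.311 in CCF against Ctrl and -0.371 in RCF against CCF, as its second probe is high in 1 CCF array. Without Ctrl replicate 1 Gdf15 read 0.288, 0.168, 0.167 and 0.208 in VCF, CCF, RCF and all fibres against Ctrl, and without Ctrl replicate 2 -0.36, -0.479, -0.481 and -0.44. Of 2016 values of the 18 named list genes against Ctrl 73 had the other sign, 6 of them by that SD: Rchy1 in VCF (-0.069), Cdkn2c in CCF (0.225) and Top2a in CCF (-0.375) with normexp, and Bak1 in VCF (0.029) and all fibres (0.009) and Top2a in CCF (-0.395) with the mean over probes. The smallest adjusted p among the 2016 was 0.0883 in limma. Bbc3 stayed above Ctrl under all alternatives, at 0.229 to 0.381 in VCF, 0.14 to 0.465 in CCF and 0.292 to 0.457 in RCF.

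The median of the 10 genes moved with normexp to -0.034 in VCF and 0.022 in CCF against Ctrl, 0.082 in CCF against VCF and 0.001 in RCF against CCF. It was 0.034 in RCF against CCF with quantile normalization, 0.1 in VCF and -0.002 in CCF against Ctrl with array weights, and 0.043 in RCF against CCF with the mean over probes. Without the 4 arrays high in other tissue it was -0.051 in all fibres against Ctrl, 0.023 in RCF against VCF and 0.149 in RCF against CCF. Leaving out single arrays gave 0.007 to 0.102 in VCF, -0.090 to 0.034 in CCF, -0.052 to 0.053 in RCF and -0.011 to 0.055 in all fibres against Ctrl, -0.094 to -0.012 in CCF against VCF, -0.063 to 0.007 in RCF against VCF and 0.003 to 0.116 in RCF against CCF. With the replicate block it was 0.010, -0.058 and 0.013 in VCF, CCF and RCF against Ctrl, with no gene passing. Replicate numbers showed no clear pairing of the arrays. Deviations of same-numbered arrays correlated with r of -0.37 to 0.352 (median 0.051, 19 pairs). Differently numbered arrays gave -0.314 to 0.428 (median 0.004, 54 pairs). The median r was 0.124 for arrays of the same slide and -0.076 for arrays of different slides. Over all probes the count passing ran from 0 to 16 in VCF, 0 to 1 in CCF, 0 to 10 in RCF and 0 to 12 in all fibres against Ctrl, highest without CCF replicate 1 in VCF and RCF. With 3 or 4 arrays a group, the 95% intervals against Ctrl reached 0.24 to 0.594 to each side.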
